A study of Mus musculus with 6 samples.

Results

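The genes described here are the secreted Wnt proteins, their Frizzled and Lrp receptors, the R-spondins with their Lgr receptors, the secreted Wnt antagonists and the feedback and transcription genes downstream of them. They were taken by symbol: every deposited gene named Wnt or Fzd followed by a digit, together with Lgr4 to Lgr6, the R-spondins, Dkk, Sfrp, Frzb, Wif1, Notum, Lrp5, Lrp6, Rnf43, Znrf3, Axin2, Lef1, Tcf7, Nkd1 and Nkd2. This gave 49 of the 24413 genes with values, namely 15 ligands, 12 Frizzled or Lrp receptors, 8 genes of the R-spondin axis, 9 secreted antagonists and 5 intracellular genes. Dkk1 and Rspo4 were not analysed here.

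The compared groups were 3 libraries of cells kept for 24 h in medium conditioned by dorsal root ganglion (DRG) cultures and 3 libraries of cells kept in medium with 1% FBS. All cells, controls included, came from Achilles tendons of male mice 12 weeks old with the genotype Tppp3ECE/+;R26RtdT-CreERT2;Scx-GFP, and were sorted with gates on GFP, the Scx reporter, and tdT, the reporter of the Tppp3 lineage. Tendons of 3 mice were used. The replicates are called biological, but which animal gave which library is not stated, so part of the spread behind each p-value may be technical. The ganglia came from 3 male C57BL/6J mice of the same age. They had been grown for 4 to 5 days with 5-fluoro-2-deoxyuridine and uridine, each at 20 µM, before medium with 1% FBS was put on and harvested, so released factors, use of the medium and traces of these drugs cannot be told apart.

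Wnt proteins are lipid-modified secreted ligands that bind Frizzled receptors together with Lrp5 or Lrp6 and stabilise beta-catenin, which works with TCF/LEF factors at target genes such as Axin2. R-spondins bind Lgr receptors and keep the ubiquitin ligases Rnf43 and Znrf3 from removing Frizzled from the membrane, while Dkk and Sfrp proteins act outside the cell on the receptors or on the ligands. In tendon, Wnt signalling is known to bear on the tendon gene programme and on the choice between tendon, cartilage and bone fates.

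The libraries held 18774787 to 26061603 fragments assigned to genes (18774787 to 23462353 in conditioned and 19954556 to 26061603 in control libraries). Levels are in FPKM, that is, fragments scaled to gene length and sequencing depth, and are given for replicates 1, 2 and 3 in that order, or as mean ± SD (n = 3 in each group). A log2 fold change is the conditioned minus the control value of log2(FPKM + 1), with its standard error (SE); the added 1 shrinks the change of genes with low levels. The test was limma with Benjamini-Hochberg adjustment over the 11678 genes whose mean reached 1 FPKM, and a gene passed at an adjusted p below 0.05. Of the tendon markers 8 of 8 were tested, and 6 of them fell, against 2.49% lower of all genes tested. The transcription factor genes Scx and Mkx did not pass (adjusted p = 0.0725 and 0.982 in limma). Summed levels were 3546 to 3646 FPKM in conditioned and 4501 to 4626 FPKM in control libraries. Most of the sum was Col1a1 (2662 ± 38.3 FPKM in conditioned and 3336.5 ± 35.8 FPKM in control libraries) and Col1a2. The Tppp3 lineage list summed to 792 to 811 FPKM in conditioned and 612 to 644 FPKM in control libraries: of 5 tested genes Ly6a rose (617 ± 7.30 FPKM in conditioned and 448 ± 13.6 FPKM in control libraries, adjusted p = 0.000122 in limma) and Cd34 fell (3.84 ± 0.260 FPKM in conditioned and 5.71 ± 0.0261 FPKM in control libraries, adjusted p = 0.00213 in limma). Tppp3 itself was low, with 0.777 to 1.12 FPKM in conditioned and 0.724 to 1.05 FPKM in control libraries. Of the 10 DRG neuron markers with values, Tubb3 was the 1 that could be tested and fell, their sum was 18.1 to 19.0 FPKM in conditioned and 24.0 to 26.6 FPKM in control libraries, and Calca, Nefh, Nefl and Scn9a had means below 0.1 FPKM. Glial markers summed to 2.42 to 3.77 FPKM in conditioned and 3.98 to 4.35 FPKM in control libraries (0 of 1 tested passed), and macrophage markers to 3.22 to 4.16 and 3.71 to 5.18 FPKM (0 of 2). Sox10, Ptprc, Cdh5 and Pecam1 had means below 0.1 FPKM. Tek of the endothelial list and Col2a1 of the chondrocyte list fell. Of the mural list Myh11 rose, whereas Notch3 (8.35 ± 0.166 FPKM in conditioned and 9.78 ± 0.612 FPKM in control libraries) and Rgs5 (0.440 to 0.546 FPKM in conditioned and 0.748 to 1.06 FPKM in control libraries) were lower without overlap; in limma Notch3 did not pass and Rgs5 lay below the filter. The part that these shifts have in the changes below was not tested, and in these bulk samples fewer cells of a type and less RNA per cell cannot be told apart.

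With conditioned medium, Lgr5, Wnt2, Dkk2, Rspo3 and Fzd6 fell, and Rspo2 and Fzd5 rose. These were 7 of the 27 members with a mean of at least 1 FPKM (25.9%). Of all genes tested, 6.53% passed in either direction, 4.04% higher and 2.49% lower. The difference between these shares was not tested. The members were chosen with earlier results of these data known, which may have raised their share. With quantile normalization 1 member was higher and 5 were lower, with 394 higher and 361 lower among all genes. Under that setting Rspo2 and Fzd6 did not pass, and Sfrp1 passed as lower. Lgr5, Dkk2 and Wnt2 passed under every alternative that tested them. Without any 1 of the 6 libraries, 0 to 2 members were higher and 3 or 4 lower. The median log2 fold change was -0.04 over the 27 members and 0.01 over all genes tested. The groups did not overlap for 14 of the 27 members, 8 lower and 6 higher with conditioned medium, against 26.0% of all genes tested (11.6% lower and 14.3% higher). The other 22 members lay below the level filter, with means of 0.00443 to 0.737 FPKM.

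**Figure D1:**
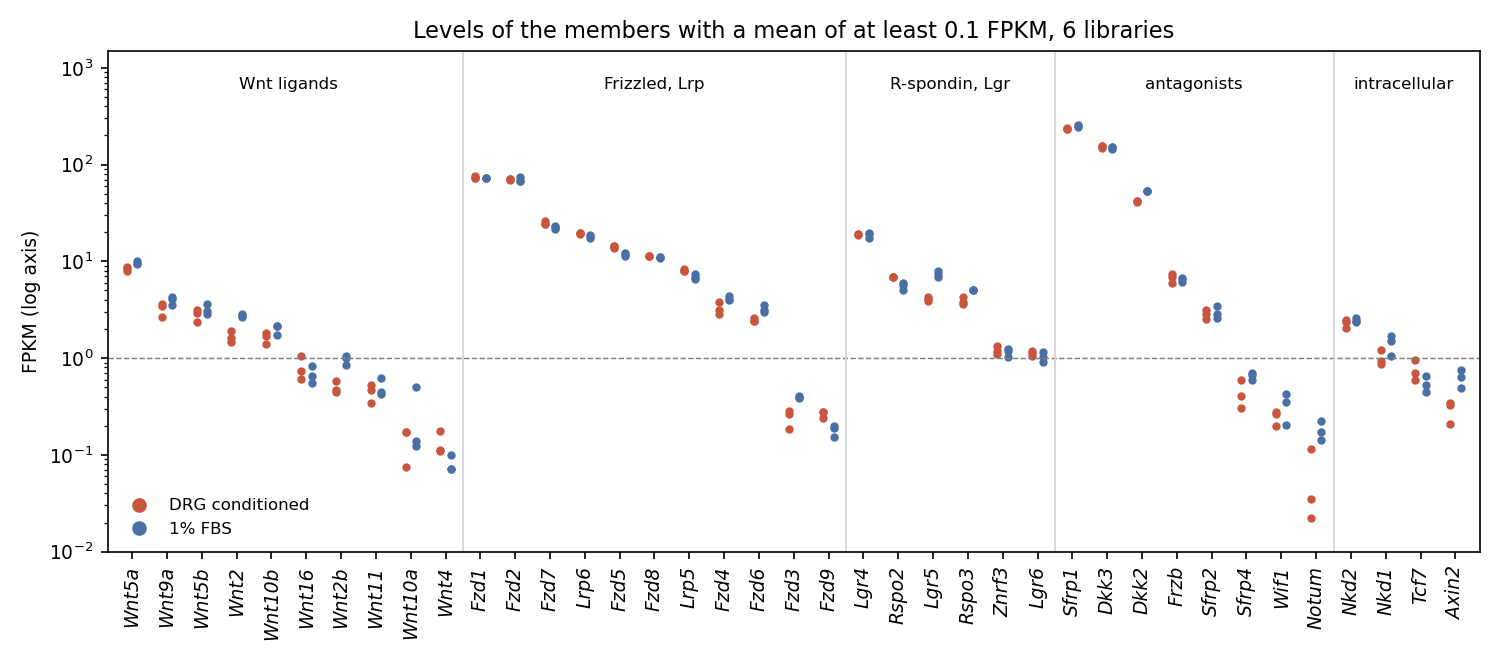
Level of each member with a mean of at least 0.1 FPKM in every library (log axis), grouped by role, with conditioned libraries in red left of control libraries in blue; the dashed line is the filter at 1 FPKM. Sfrp1, Dkk3, Fzd1 and Fzd2 had the highest levels, and most Wnt ligands lay below 10 FPKM.

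Among the ligands, Wnt5a, which acts mainly through beta-catenin-independent routes, was the most abundant and Wnt2, which can stabilise beta-catenin, was the 1 that passed. Summed over the 15 ligands, the level was 20.3, 18.6 and 20.4 FPKM in conditioned libraries, against 24.0, 24.0 and 24.7 FPKM in control libraries. Every conditioned library was below every control library, and Wnt5a made up 42.5% ± 3.30 of the sum in conditioned and 40.4% ± 1.84 in control libraries.

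Wnt2 had 1.90, 1.48 and 1.62 FPKM in conditioned libraries, against 2.77, 2.82 and 2.64 FPKM in control libraries. All 3 conditioned libraries lay below all 3 control libraries, with a mean 0.608 times that of the control group. The log2 fold change was -0.49 ± 0.08 SE (adjusted p = 0.00706), based on 242 fragments in the conditioned and 432 in the control group. Wnt2 lies on chromosome 6 from 17988940 to 18030585 on the minus strand (mm10).

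Wnt5a had 7.93, 8.49 and 8.80 FPKM in conditioned libraries, against 10.2, 9.45 and 9.70 FPKM in control libraries. The groups did not overlap, but limma gave an adjusted p of 0.0737 for a log2 fold change of -0.20 ± 0.05 SE. With limma-voom on fragments recovered from the FPKM values, Wnt5a had an adjusted p of 0.0148 for a log2 fold change of -0.23. The exons of Wnt5a share 358 bases with an antisense gene, Gm2670, which had a mean of 0.213 FPKM, and the strand setting of the counting is not given in the sources used here.

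Wnt9a had 3.59, 2.67 and 3.45 FPKM in conditioned libraries, against 3.52, 4.04 and 4.29 FPKM in control libraries. Wnt5b had 2.89, 2.36 and 3.13 FPKM in conditioned libraries, against 2.89, 3.06 and 3.66 FPKM in control libraries. Wnt10b, a ligand of the beta-catenin route, had 1.81, 1.39 and 1.69 FPKM in conditioned libraries, against 2.14, 2.16 and 1.75 FPKM in control libraries. For these 3 ligands the groups overlapped and the adjusted p was 0.259 to 0.476 in limma. Their log2 fold changes were -0.23 (95% interval -0.46 to 0.0024), -0.15 (-0.38 to 0.08) and -0.20 (-0.41 to 0.01), so that all 5 tested ligands had values below 0.

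Wnt2b, a close relative of Wnt2, lay below the filter with 0.449, 0.582 and 0.466 FPKM in conditioned libraries, against 1.01, 1.06 and 0.850 FPKM in control libraries. It had 41, 46 and 46 fragments in conditioned libraries and 99, 117 and 72 in control libraries, which did not overlap. By limma without the level filter it had an adjusted p of 0.0776, where 2.02% of 24413 genes passed. By voom without the level filter, an alternative added after the levels were seen, it had a log2 fold change of -0.996 ± 0.23 SE (adjusted p = 0.00835), where 4.46% of genes passed. Of the other ligands below the filter, Wnt16, Wnt11, Wnt10a and Wnt4 had 222, 116, 22 and 35 fragments in the conditioned group and 207, 141, 41 and 24 in the control group, and had no call by either tool. The FPKM values of Wnt4 were higher in all 3 conditioned libraries than in any control library. Wnt7b had 8 and 6 fragments, and Wnt1, Wnt6, Wnt7a and Wnt8a had 0 or 1 fragments in the conditioned group and 1 to 4 in the control group.

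The receptor side was dominated by Fzd1 and Fzd2, and the change there was a rise of Fzd5 with a fall of Fzd6, both much lower in level. Summed over the 10 Frizzled genes, the level was 202, 199 and 202 FPKM in conditioned libraries, against 194, 196 and 199 FPKM in control libraries. Fzd1 and Fzd2 made up 36.6% ± 0.529 and 35.2% ± 0.214 of that sum in conditioned libraries and 37.3% ± 0.541 and 35.5% ± 1.40 in control libraries.

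Fzd5, a Frizzled that signals through beta-catenin, had 13.8, 14.4 and 14.3 FPKM in conditioned libraries, against 11.9, 12.2 and 11.4 FPKM in control libraries. The groups did not overlap, and the conditioned mean was 1.20 times the control mean. The log2 fold change was 0.24 ± 0.04 SE (adjusted p = 0.0134). Without conditioned replicate 2 it was 0.23 with an adjusted p of 0.0684, and without conditioned replicate 3 it was 0.24 with an adjusted p of 0.0528, and did not pass. Fzd5 lies on chromosome 1 from 64730558 to 64737751 on the minus strand, and 1233 bases (17.8%) of its exons are shared with the opposite-strand gene Gm38058, which had a mean of 0.0237 FPKM.

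Fzd6, which is known for planar polarity and for restraining the beta-catenin route, had 2.40, 2.60 and 2.41 FPKM in conditioned libraries, against 3.14, 3.02 and 3.50 FPKM in control libraries. The groups were apart by less than the range of the control libraries. The log2 fold change was -0.28 ± 0.07 SE with an adjusted p of 0.0471, close to the threshold. Leaving out any 1 of the 6 libraries ended the call, with adjusted p-values of 0.0822 to 0.152. Quantile normalization, a lower or no level filter, and the replicate number as a block ended it as well. Fzd6 lies on chromosome 15 from 39006034 to 39038188 on the plus strand and shares 152 exonic bases with the opposite-strand gene Gm26704, which had a mean of 0.023 FPKM.

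Fzd4, the receptor of norrin as well as of Wnts, had 3.15, 3.79 and 2.85 FPKM in conditioned libraries, against 4.43, 4.09 and 3.97 FPKM in control libraries. The groups did not overlap, and the log2 fold change of -0.28 ± 0.09 SE did not pass in limma (adjusted p = 0.114) but did by voom (-0.38, adjusted p = 0.0166). Fzd7, a Frizzled of progenitor cells in several tissues, had 24.3, 24.1 and 25.9 FPKM in conditioned libraries, against 22.9, 23.2 and 21.5 FPKM in control libraries. Fzd8 had 11.4, 11.5 and 11.3 FPKM in conditioned libraries, against 11.0, 10.8 and 11.1 FPKM in control libraries. The co-receptor Lrp6 had 19.7, 19.2 and 19.6 FPKM in conditioned libraries, against 18.8, 18.4 and 17.5 FPKM in control libraries. For these 3 genes the groups did not overlap, and log2 fold changes of 0.13, 0.05 and 0.09 did not pass in limma (adjusted p = 0.167, 0.553 and 0.280).

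The co-receptor Lrp5 had 7.96, 7.88 and 8.30 FPKM in conditioned libraries, against 7.49, 6.64 and 6.95 FPKM in control libraries. Its groups did not overlap, with a log2 fold change of 0.17 ± 0.05 SE (adjusted p = 0.119 by limma, 0.0365 by voom). Fzd1 had 75.3, 72.2 and 73.1 FPKM in conditioned libraries, against 73.1, 73.4 and 73.0 FPKM in control libraries, with a log2 fold change of 0.0065 (95% interval -0.07 to 0.08, adjusted p = 0.941 in limma, below 0 under 5 of 18 alternatives). For Fzd1 and for Fzd2 the groups overlapped. Fzd2 had 71.4, 69.5 and 71.4 FPKM in conditioned libraries, against 67.0, 68.3 and 73.9 FPKM in control libraries, with a log2 fold change of 0.02 (95% interval -0.08 to 0.12, adjusted p = 0.845 in limma), and was at -0.0395 with quantile normalization.

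Below the filter, Fzd3, best known for axon guidance and planar polarity, had 79, 64 and 56 fragments in conditioned libraries and 117, 137 and 100 in control libraries. These did not overlap, and voom without the level filter gave a log2 fold change of -0.74 ± 0.20 SE (adjusted p = 0.0324), against an adjusted p of 0.423 by limma without that filter. Fzd9 had 39 fragments in the conditioned group and 29 in the control group, with FPKM values that did not overlap and no call by either tool, and Fzd10 had 2 and 10, of which all 10 were in control replicate 2.

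**Figure D2:**
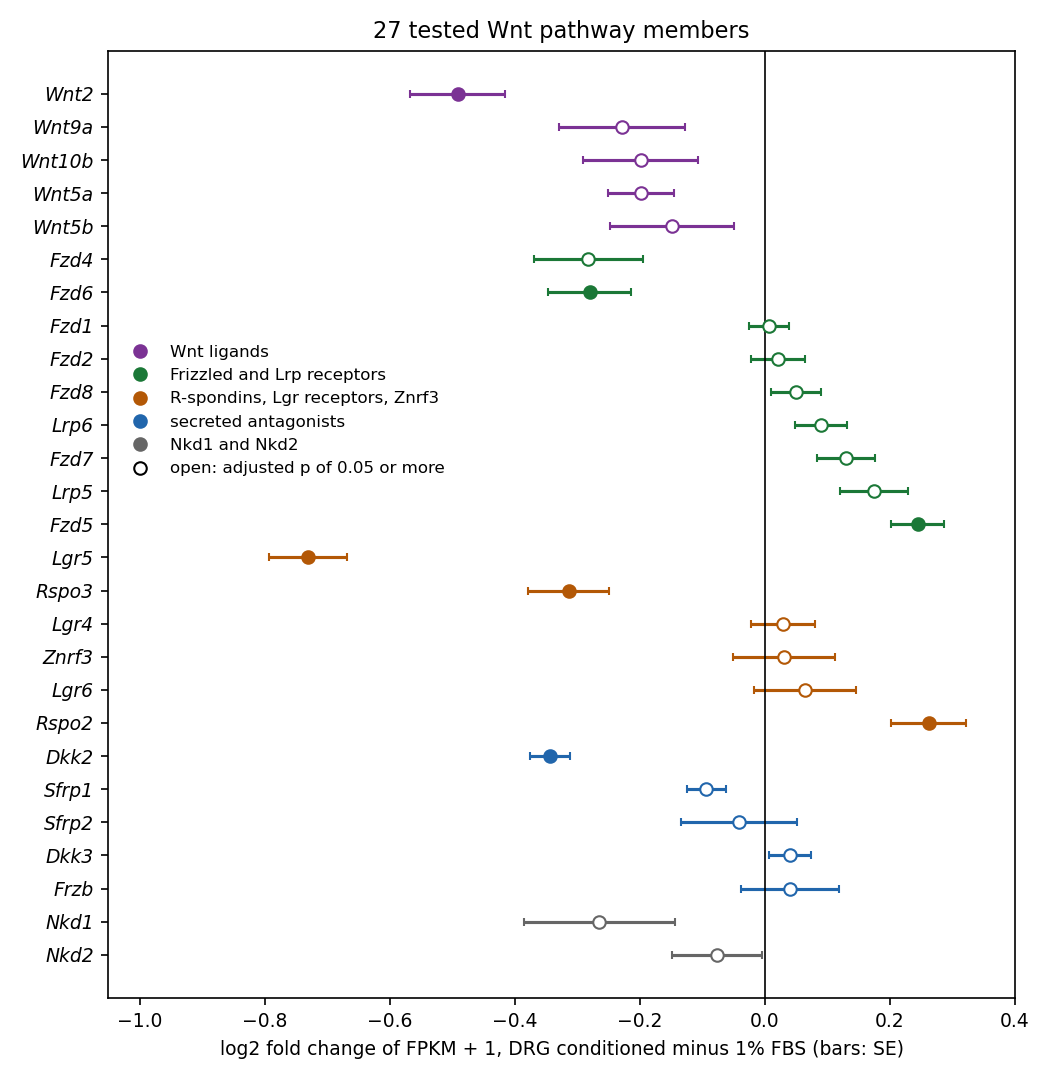
Log2 fold change of FPKM + 1, conditioned minus control, for the 27 tested members by role; bars are the SE, filled points passed the adjusted p threshold and open points did not. Lgr5 lies farthest from 0 at -0.73, Rspo3 and Rspo2 lie on opposite sides of 0, and all 5 ligands lie below it.

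In the R-spondin axis, Lgr5 fell, the farthest from 0 of the tested members, Rspo3 fell and Rspo2 rose, while Lgr4, the most abundant Lgr receptor, did not pass. Lgr5 is an R-spondin receptor and a Wnt target gene known as a stem cell marker in the gut. Lgr5 had 3.86, 4.03 and 4.25 FPKM in conditioned libraries, against 7.87, 7.41 and 6.86 FPKM in control libraries. The lowest control library was well above the highest conditioned library, and the conditioned mean was 0.548 times the control mean. The log2 fold change was -0.73 ± 0.06 SE (adjusted p = 0.000308), from 2664 fragments in the conditioned and 5291 in the control group, and its values over the alternatives ran from -0.88 to -0.69. Lgr5 lies on chromosome 10 from 115450311 to 115587780 on the minus strand.

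Lgr4 had 19.2, 18.8 and 19.2 FPKM in conditioned libraries, against 19.4, 19.3 and 17.3 FPKM in control libraries. These overlapped, with a log2 fold change of 0.03 (95% interval -0.09 to 0.15, adjusted p = 0.814 in limma), and the value was -0.0218 without control replicate 3. Lgr5 made up 16.7% ± 0.717 of the summed Lgr level in conditioned and 27.3% ± 0.415 in control libraries. Lgr6 had 1.17, 1.14 and 1.05 FPKM in conditioned libraries, against 1.16, 0.918 and 1.02 FPKM in control libraries, and did not pass (adjusted p = 0.738 in limma).

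Rspo3, an R-spondin that binds Lgr4 and Lgr5, had 3.63, 4.32 and 3.78 FPKM in conditioned libraries, against 5.06, 5.11 and 5.10 FPKM in control libraries. The control libraries were nearly equal and all above the conditioned ones. The log2 fold change was -0.31 ± 0.06 SE (adjusted p = 0.0259). Leaving out conditioned replicate 1 or 3 or any 1 control library ended the call, with adjusted p-values of 0.0563 to 0.0972. Rspo3 lies on chromosome 10 from 29452416 to 29535867 on the minus strand, and 404 bases of its exons are shared with an antisense gene, Gm48159.

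Rspo2, the R-spondin known for its part in limb and lung development, had 6.95, 6.86 and 6.86 FPKM in conditioned libraries, against 5.68, 5.11 and 5.98 FPKM in control libraries. Here the conditioned libraries were nearly equal and all above the control ones. The log2 fold change was 0.26 ± 0.06 SE (adjusted p = 0.0406). Leaving out any 1 conditioned library or control replicate 1 or 2 ended the call, with adjusted p-values of 0.0711 to 0.133. The call also ended without the level filter, with quantile normalization, without the trend and robust prior, and with the replicate number as a block. Rspo2 lies on chromosome 15 from 43020794 to 43170826 on the minus strand.

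The level of Rspo2 over that of Rspo3 was 1.92, 1.59 and 1.82 in conditioned libraries, against 1.12, 1.00 and 1.17 in control libraries. The summed R-spondin level was 10.8 ± 0.325 FPKM in conditioned and 10.7 ± 0.454 FPKM in control libraries, so the sums overlapped while the ratios did not. Rspo1 had 1 fragment in the conditioned group and 3 in the control group. Of the membrane ubiquitin ligases, Znrf3 had 1.18, 1.10 and 1.33 FPKM in conditioned libraries, against 1.04, 1.24 and 1.19 FPKM in control libraries, and did not pass (adjusted p = 0.883 in limma). Rnf43 had 13 fragments in the conditioned and 9 in the control group.

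**Figure D3:**
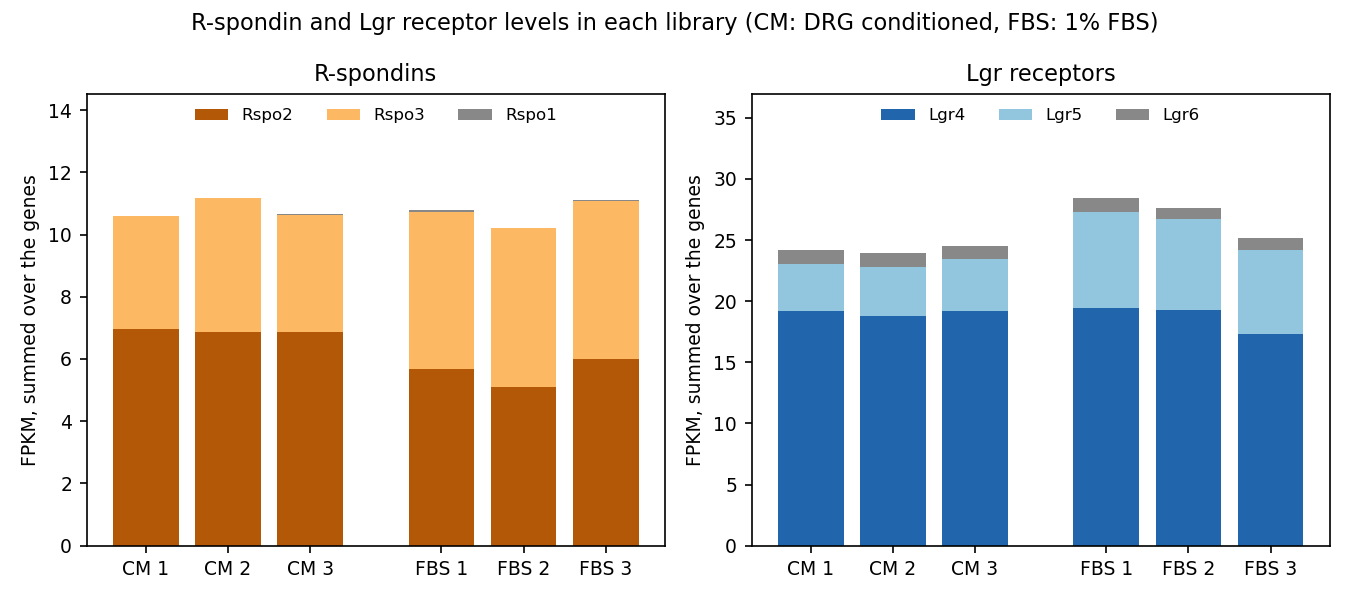
Stacked FPKM of the R-spondins (left) and of the Lgr receptors (right) in each library, conditioned libraries left of control libraries. The Rspo2 share is larger and the Rspo3 share smaller in the conditioned libraries at a similar sum, and the Lgr5 part is smaller in them while Lgr4 is much the same.

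Secreted antagonists had the highest summed level of the families summed here, mostly from Sfrp1 and Dkk3. Of the 5 tested antagonists Dkk2 fell. Their summed level was 443, 434 and 439.6 FPKM in conditioned libraries, against 462, 463 and 462 FPKM in control libraries. Dkk2, a Dickkopf protein that binds Lrp5 and Lrp6, had 42.1, 41.4 and 41.9 FPKM in conditioned libraries, against 52.8, 53.4 and 53.8 FPKM in control libraries. The gap between the groups was many times the range within either, and the log2 fold change was -0.34 ± 0.03 SE (adjusted p = 0.000456). Dkk2 lies on chromosome 3 from 132085292 to 132180304 on the plus strand.

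Sfrp1, a decoy that resembles the ligand-binding part of Frizzled, had 237, 233 and 231 FPKM in conditioned libraries, against 254, 248 and 245 FPKM in control libraries. The groups did not overlap, and the log2 fold change of -0.09 ± 0.03 SE did not pass in limma (adjusted p = 0.135). Sfrp1 did pass by voom (-0.10, adjusted p = 0.0402) and by limma with quantile normalization (-0.15, adjusted p = 0.033). Dkk3, a divergent Dickkopf, had 155, 149 and 156 FPKM in conditioned libraries, against 145, 151 and 151 FPKM in control libraries, which overlapped (adjusted p = 0.579 in limma). Of the Frizzled-related decoys, Frzb had 5.91, 6.95 and 7.39 FPKM in conditioned libraries, against 6.16, 6.63 and 6.75 FPKM in control libraries. Sfrp2 had 2.54, 2.89 and 3.11 FPKM in conditioned libraries, against 2.86, 2.60 and 3.43 FPKM in control libraries. Both overlapped, and neither passed in limma (adjusted p = 0.835 and 0.861).

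Below the filter, Sfrp4 had 54, 24 and 40 fragments in conditioned libraries and 58, 77 and 56 in control libraries, with no call by either tool. Notum, an extracellular enzyme that removes the Wnt lipid and is itself a Wnt target, had 6, 1 and 2 fragments in conditioned libraries and 8, 11 and 11 in control libraries. The Notum groups did not overlap, but the adjusted p was 0.186 by voom without the level filter and 0.322 by limma without it, and 708 bases of its exons are shared with the antisense gene Notumos. Wif1 had 39 fragments in the conditioned and 54 in the control group, and Sfrp5 had 3 and 2.

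**Figure D4:**
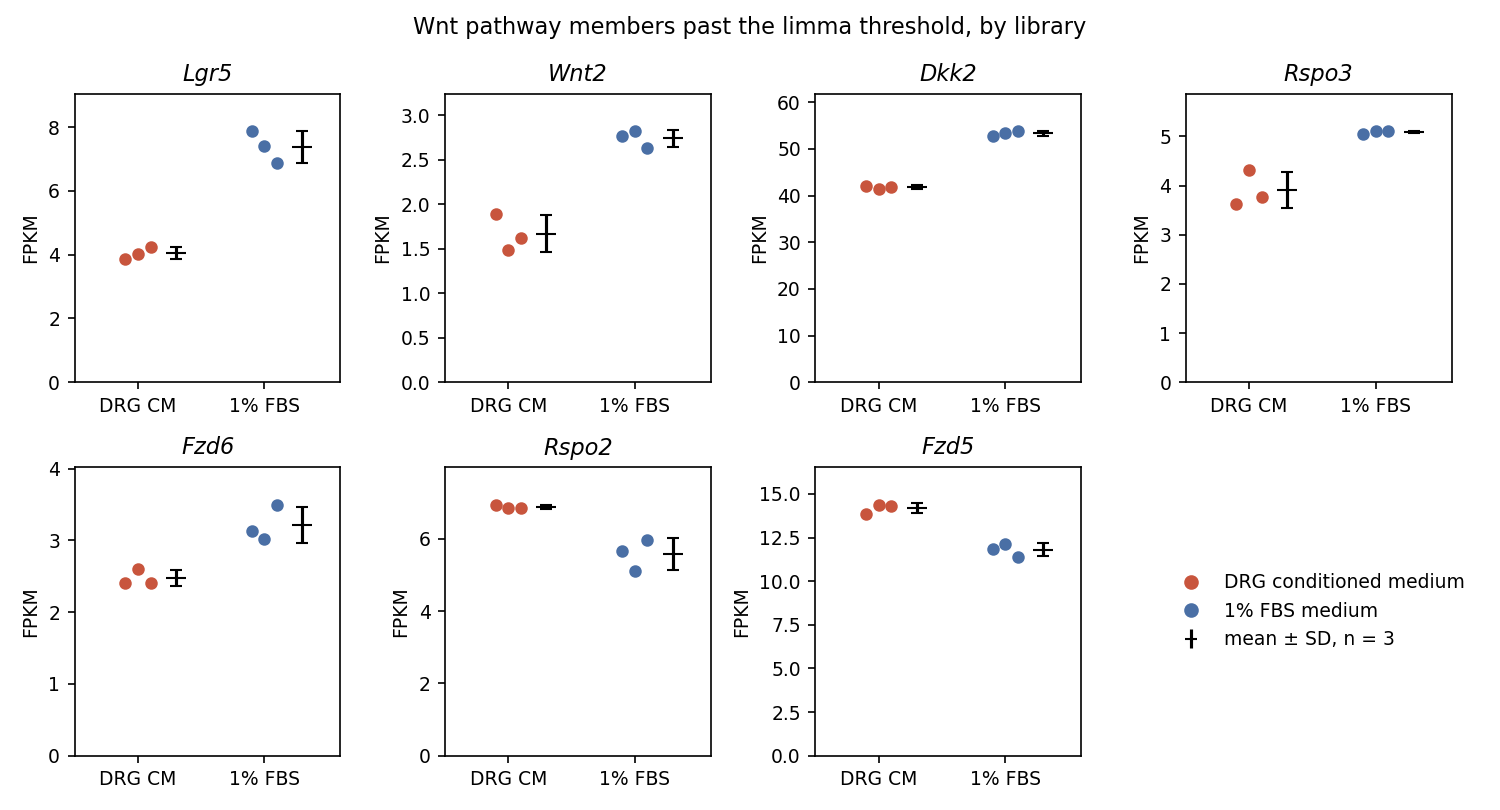
FPKM in each library for the 7 members that passed, conditioned libraries in red left of control libraries in blue, with the mean and SD (n = 3) in black on axes that start at 0. Lgr5, Wnt2, Dkk2, Rspo3 and Fzd6 are lower and Rspo2 and Fzd5 higher in all 3 conditioned libraries than in any control library.

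Of the intracellular genes, which respond to or limit the beta-catenin route, those that could be tested, Nkd1 and Nkd2, did not pass. Nkd1, a feedback inhibitor that binds Dishevelled, had 1.20, 0.945 and 0.869 FPKM in conditioned libraries, against 1.05, 1.71 and 1.50 FPKM in control libraries. These overlapped, with a log2 fold change of -0.26 ± 0.12 SE (adjusted p = 0.279 in limma) and of -0.50 by voom (adjusted p = 0.161). Nkd2 had 2.36, 2.06 and 2.46 FPKM in conditioned libraries, against 2.36, 2.42 and 2.62 FPKM in control libraries, which overlapped (adjusted p = 0.626 in limma).

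Axin2, a scaffold of the beta-catenin destruction complex and the most widely used target gene of the pathway, lay below the filter, and 209 bases of its exons are shared with the antisense gene Gm11670. It had 0.326, 0.348 and 0.209 FPKM in conditioned libraries, against 0.641, 0.748 and 0.495 FPKM in control libraries, or 39, 36 and 27 fragments against 82, 108 and 55. Every conditioned library was below every control library, and the conditioned mean was 0.468 times the control mean. Voom without the level filter gave a log2 fold change of -1.15 ± 0.28 SE (adjusted p = 0.0106), whereas limma without that filter gave -0.33 ± 0.09 SE (adjusted p = 0.192). The transcription factor gene Tcf7 had 55, 35 and 37 fragments in conditioned libraries and 32, 31 and 35 in control libraries, with no call by either tool. Lef1, the partner of beta-catenin in many other tissues, had 4 fragments in the conditioned group and 1 in the control group. Of all 22 members below the filter, voom without it called 3 (Axin2, Wnt2b and Fzd3), where it called 4.46% of all 24413 genes. Limma without the filter called 0 of the 22, where it called 2.02% of all genes. In that limma fit 3 of the 22 had an unadjusted p below 0.05. The share of all genes at that level was not counted, so the 3 cannot be called many or few.

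**Figure D5:**
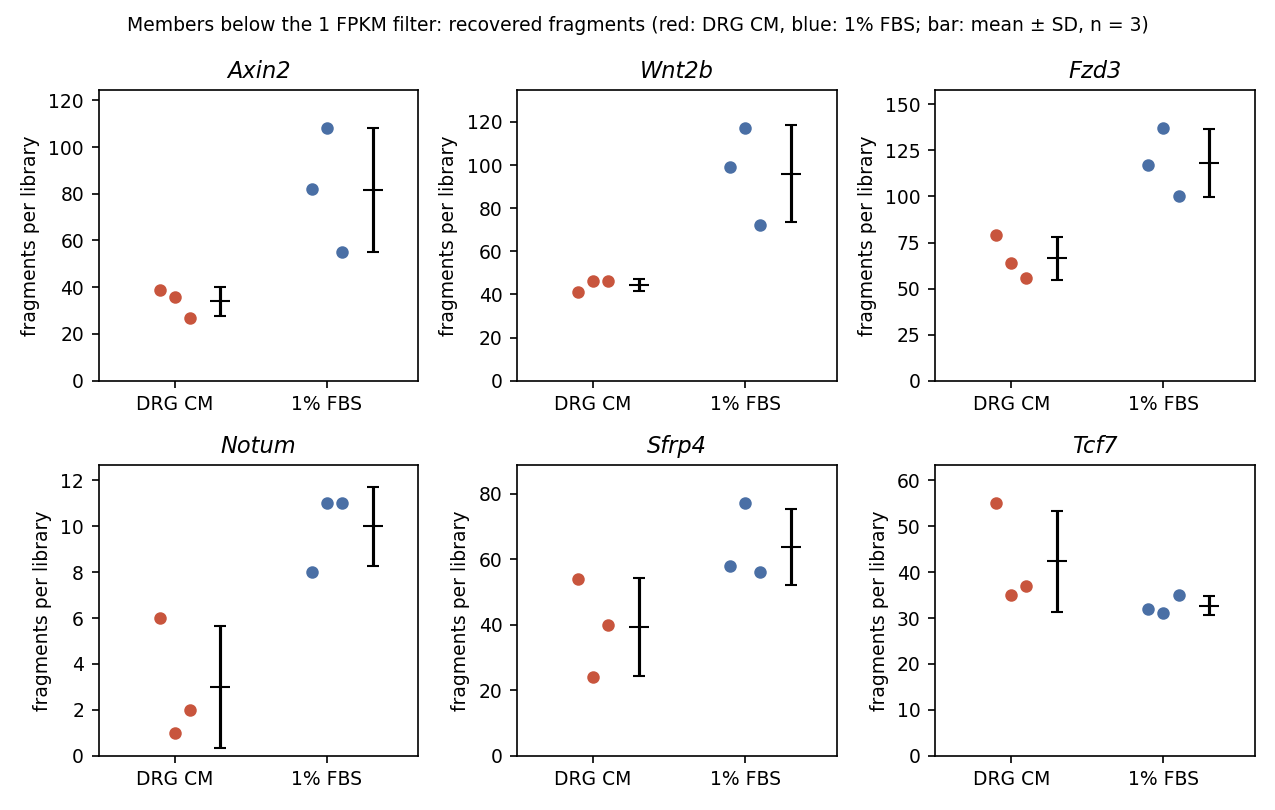
Recovered fragments per library, not scaled for depth, of 6 members below the 1 FPKM filter, conditioned libraries in red left of control libraries in blue, with mean and SD (n = 3). Axin2, Wnt2b, Fzd3 and Notum have fewer fragments in all 3 conditioned libraries than in any control library, Sfrp4 has 24 to 54 against 56 to 77, and Tcf7 overlaps.

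The sequences just upstream are shown for Dkk2 and Fzd5, which passed, and for Axin2, because TCF/LEF factors act on the pathway's own genes. RefSeq windows of build GRCm38.p6 were found for 31 of the 49 members, and the 250 bases before the RefSeq start are printed 5′ to 3′ on the strand of the gene. RefSeq and GENCODE starts can differ: the Fzd5 window shares 1 base with the gene as placed above, and the Wnt2 window, with 140 bases inside the gene, is not shown. Capitals mark matches on either strand to the TCF/LEF core in the forms CTTTGA and CTTTGT, to the core of the interferon-stimulated response element, or to the TATA box TATAAA. The windows lie at chr3:132085042-132085291 (plus strand), chr11:108920099-108920348 (plus strand) and chr1:64737751-64738000 (minus strand).
Dkk2: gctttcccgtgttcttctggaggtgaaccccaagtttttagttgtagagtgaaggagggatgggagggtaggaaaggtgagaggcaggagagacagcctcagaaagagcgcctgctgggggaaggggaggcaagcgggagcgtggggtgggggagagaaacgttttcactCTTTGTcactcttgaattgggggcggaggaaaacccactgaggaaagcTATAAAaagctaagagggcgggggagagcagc
Axin2: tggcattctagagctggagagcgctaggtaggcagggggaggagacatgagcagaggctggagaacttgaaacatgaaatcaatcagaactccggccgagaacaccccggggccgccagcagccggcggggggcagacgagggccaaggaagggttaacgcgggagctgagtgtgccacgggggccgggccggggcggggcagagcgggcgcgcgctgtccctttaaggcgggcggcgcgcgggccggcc
Fzd5: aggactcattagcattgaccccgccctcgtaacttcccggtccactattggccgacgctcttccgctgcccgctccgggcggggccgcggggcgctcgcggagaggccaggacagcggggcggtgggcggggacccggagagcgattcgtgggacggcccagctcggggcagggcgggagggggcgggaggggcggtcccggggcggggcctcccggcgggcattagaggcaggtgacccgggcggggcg

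The Dkk2 window held CTTTGT starting at position -80 and TATAAA at position -32 relative to the start, and 7 CpG dinucleotides. The windows of Axin2 and Fzd5 held none of the 4 motifs and had 24 and 32 CpG dinucleotides. Over all 32851 windows, CTTTGA was found in 13.8%, CTTTGT in 16.5%, the core of the interferon-stimulated response element in 2.98% and TATAAA in 12.4%. Of the 31 member genes with a window, 5 held CTTTGA, 4 held CTTTGT, 6 held TATAAA and 0 held that core. A match is a run of letters and not a shown binding site, and a window with no match says nothing of sites elsewhere.

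Further genes of the pathway, listed by role, numbered 88, of which 81 had values and 66 were tested. Of these 66, 0 rose, 5 fell and 61 did not pass in limma, against 4.04% higher and 2.49% lower of all genes tested. These shares are for the adjusted p. An unadjusted p below 0.05 in limma was found for 18 of the 66. The share of all genes at that level was not counted, so the 18 cannot be called many or few. By voom 2 were higher, the co-factor gene Bcl9 (0.21) and the co-repressor gene Tle2 (0.20), and 7 were lower, where voom called 5.31% of all genes higher and 3.7% lower. The median log2 fold change over the 66 was -0.02. Below the level filter, voom without it called Draxin, listed with the antagonists, and Celsr3, of the planar polarity branch, higher. Their log2 fold changes were 0.87 and 1.48 (adjusted p = 0.0345 and 0.0243), where 4.46% of genes passed. Draxin had 274 fragments in the conditioned and 157 in the control group, and Celsr3 had 104 and 40. Limma without the filter called neither (adjusted p = 0.266 and 0.316).

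The further pathway genes that fell in limma acted in ligand release, at the cell surface or as targets. Wls, which carries Wnt proteins to the cell surface, had 45.0, 45.6 and 46.1 FPKM in conditioned libraries, against 52.9, 51.0 and 51.6 FPKM in control libraries, with a log2 fold change of -0.18 ± 0.03 SE (adjusted p = 0.0153). Cthrc1, a secreted protein that favours the binding of Wnt to Frizzled with Ror2, had 70.5, 76.5 and 71.6 FPKM in conditioned libraries, against 111, 114 and 117 FPKM in control libraries (log2 fold change -0.64 ± 0.04 SE, adjusted p = 7.18e-05). The cell-surface proteoglycan gene Gpc4 fell by 0.26 on the log2 scale, Igfbp4, an IGF-binding protein also described as a Wnt antagonist, by 0.19, and the cyclin gene Ccnd1 by 0.15 (adjusted p = 0.00413, 0.0164 and 0.0299 in limma). Without 1 library the number lower was between 2 and 5, and it was 2 without conditioned replicate 2.

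The groups of these 66 genes did not overlap for 15 that were lower and 5 that were higher with conditioned medium, against 11.6% and 14.3% of all genes tested. By role, 0 of 20 tested genes of the destruction complex and cytoplasm passed in limma, against 6.53% of all genes tested. Likewise 0 of 11 nuclear co-factors and 0 of 9 genes of the planar polarity and calcium branch passed. At that share, groups this small can hold 0, so 0 does not set these roles apart. In the order named, these groups had 2, 3 and 1 genes at an unadjusted p below 0.05 in limma. The share of all genes at that level was not counted, so these numbers cannot be called many or few. By voom on the tested genes these groups had 0, 2 and 0. Ctnnb1, which encodes beta-catenin, had 119, 120 and 123 FPKM in conditioned libraries, against 126, 122 and 121 FPKM in control libraries, which overlapped (log2 fold change -0.02 ± 0.03 SE, adjusted p = 0.766 in limma). Of the 9 further target genes tested, 1 passed in limma, Ccnd1 (11.1%, against 6.53% of all genes tested). Myc averaged 18.2 ± 0.584 FPKM in conditioned and 19.9 ± 0.484 FPKM in control libraries, which did not overlap, and did not pass (adjusted p = 0.141 in limma). The targets Wisp2 and Fosl1 had log2 fold changes above 0 (0.02 and 0.12). Neither passed in limma (adjusted p = 0.86 and 0.304), and the other tested targets had values below 0.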

How the data were processed

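Bulk RNA-seq was analysed from 6 libraries, 3 with DRG conditioned medium and 3 with 1% FBS medium, grouped by their titles. The authors deposited FPKM values for 24413 genes, 1 column per library, per the file headers. CASAVA, HISAT2 2.0.5 and mm10 appear in the submitters' processing notes, with no role stated. No source used here gives the counting program, annotation, strand setting or filters.

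The deposited FPKM values of 24413 of 24413 genes came from whole fragments (tolerance 0.0001 fragment), which were recovered with gene lengths, equal to those of GENCODE M21 for 23561 genes and otherwise inferred. The divisor of each library was 0.9999 to 1.0108 times its fragments in the table and was proportional to median-of-ratios size factors of those fragments, so the deposited values already carry such a scaling. Recovered fragments served for depth, low members and voom only. No library was a copy of another (chi-square per degree of freedom 3.02 to 6.56 within groups). Counting floors cover counting error only.

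The main test was limma 3.58.1 in R 4.3.3 on log2(FPKM + 1), filtered at a mean of 1 FPKM, with a robust, trended prior variance, two-sided p-values and no covariates, and Benjamini-Hochberg adjustment over 11678 genes. The functions were tested on simulated data. Tables and figures used Python 3.11.15, numpy 2.4.6, pandas 2.3.3 and matplotlib 3.10.9. Alternatives changed the pseudocount, filter, scaling, moderation, tool (limma-voom), replicate block and the libraries included. Tested members were described with their values in every library, and those below the filter by fragments. Of the further pathway genes those that passed were named. Ctnnb1, Myc, Bcl9, Tle2, Wisp2, Fosl1, Draxin and Celsr3 were named after their values were seen. The members and gene lists were chosen with earlier results of these data known. Coordinates are those of GENCODE M21 for mm10, in which 49 of 49 members were found, and promoter windows are from RefSeq.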

Additional observations from a re-analysis of the deposited data

How the results depend on the processing

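Lgr5, Dkk2 and Wnt2 kept their direction and their side of the threshold in all alternatives that tested them. Of the 7 members that passed, 3 did so throughout, and Fzd5, Rspo3, Rspo2 and Fzd6 kept their direction but not always their call. The call was lost in 3 of 18 alternatives for Fzd5, 7 of 17 for Rspo3, 9 of 18 for Rspo2 and 10 of 17 for Fzd6. Without the level filter 1 member was higher and 3 were lower, with 327 higher and 165 lower among all 24413 genes. With quantile normalization 1 member was higher, with 394 higher among all genes. Without the trend and robust prior 1 member was higher, with 360 higher among all genes. With a filter at a mean of 5 FPKM 2 of 15 members were lower, since fewer were tested, with 266 lower among 7088 genes. By voom 3 members were higher and 8 lower, with 620 higher and 432 lower among all genes. For the further pathway genes voom gave 2 higher, and limma without the trend and robust prior gave 2 lower. Leaving out 1 library gave 0 to 2 members higher and 3 to 4 lower, 2 to 5 further pathway genes lower, and 265 to 426 genes higher and 129 to 252 lower among all genes, with fewer samples in each fit. Values that changed sign all belonged to members that had not passed: Lgr4 (-0.0022 with quantile normalization; -0.0218 to 0.0581 without 1 library), Znrf3 (-0.0101 to 0.0648 without 1 library, -0.0087 without control replicate 1), Frzb (-0.0197 to 0.121 without 1 library), Sfrp2 (-0.108 to 0.0414 without 1 library), Fzd1 (-0.0377 with quantile normalization, -0.0014 and -0.0011 by voom with and without the filter, -0.0017 with library totals as divisor, -0.0107 to 0.0195 without 1 library) and Fzd2 (-0.0395 with quantile normalization, -0.0062 to 0.0627 without 1 library). The cause was not tested. Library totals as divisor and voom without the filter were chosen after seeing the data. Low fragment numbers limit what can be said of the 22 members below the filter.

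With the replicate number as a block (replicate block), 0 members were higher and 3 lower, 3 further pathway genes were lower, and 259 genes were higher and 131 lower among all genes. No pairing by number was seen. The deviations of same-numbered libraries from their group means had correlations of -0.09, -0.01 and -0.05 across genes, which are not independent replicates. Differently numbered libraries had correlations of -0.03 to 0.07. With 3 libraries in each group, these values cannot show whether same-numbered libraries shared an animal.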
